A study of Mus musculus with 36 samples.

Results

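The miR-132 and miR-212 cluster is a pair of neighbouring microRNA hairpins, and its members were taken as every row of the table whose name starts with mmu-miR-132- or mmu-miR-212-. This rule found 4 of the 469 miRNAs of the table, mmu-miR-132-5p, mmu-miR-132-3p, mmu-miR-212-5p and mmu-miR-212-3p, which are the arms of both hairpins and are written without mmu- below. It uses names and no measured value, and all 4 members had a value in all 36 samples. In the samples taken 24 h after the start of treatment, miR-212-5p stood 3.04-fold lower in cells of the Ikaros line than in control cells, whereas for miR-132-3p, the most abundant member, the lines overlapped and no difference was called. At 0 h miR-212-5p was already apart in the same direction, by an amount that did not pass the test.

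A microRNA hairpin is cut from a longer transcript and then trimmed to a short duplex, of which either strand (the 5p arm or the 3p arm) can be loaded into an Argonaute protein and guide it to messenger RNAs that pair with the seed, the bases near the 5′ end of the miRNA. MiR-132 and miR-212 are transcribed together and are known as targets of the transcription factor CREB in neurons, where miR-132 acts on the growth of dendrites. In blood cells the cluster has been linked to the maintenance of haematopoietic stem cells and to the development of B cells.

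The 4 mature sequences are printed because the arms of this cluster are related by their seeds. They are those of RefSeq (GRCm38.p6), read 5′ to 3′, with bases 2 to 8, the seed, in capitals.

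miR-132-5p: aACCGUGGcuuucgauuguuac

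miR-132-3p: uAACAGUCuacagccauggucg

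miR-212-5p: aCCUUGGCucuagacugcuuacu

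miR-212-3p: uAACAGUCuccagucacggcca

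The 3p arms share the seed AACAGUC, so that both can pair with the same short sites. They were identical at 17 of 22 positions and over the first 9 bases from the 5′ end. The substitutions from miR-132-3p to miR-212-3p, with positions counted from 1 at the 5′ end, were A10C, C14U, U17C, U20C and G22A. The 5p arms carry a seed each, ACCGUGG in miR-132-5p and CCUUGGC in miR-212-5p. A RefSeq sequence was matched to 391 of the 469 miRNAs by name, and among these no miRNA outside the cluster had a seed of the members. The G and C content was 45.5% in miR-132-5p, 50.0% in miR-132-3p, 47.8% in miR-212-5p and 54.5% in miR-212-3p, against a median of 50.0% over the matched miRNAs, and the authors corrected the values for it.

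Both hairpins lie on the plus strand of chromosome 11 in GRCm38, Mir212 at chr11:75173388-75173478 (91 bases) and Mir132 at chr11:75173682-75173747 (66 bases), with 203 bases between them. In the GENCODE vM21 annotation both fall in intron 1 of the non-coding gene 1700016P03Rik, which has 3 exons on the same strand. The hairpins are printed to show where the arms sit, with the mature arms in capitals.

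Mir212: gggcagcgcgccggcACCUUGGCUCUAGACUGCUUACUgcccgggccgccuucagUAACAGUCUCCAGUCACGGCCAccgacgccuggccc

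Mir132: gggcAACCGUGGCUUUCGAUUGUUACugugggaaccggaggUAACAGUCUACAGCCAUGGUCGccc

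The samples came from B3, a mouse pre-B cell line, of which 18 carried an inducible Ikaros and 18 an empty vector. In the Ikaros line, a retroviral MSCV vector encoded HA-tagged wild type Ikaros fused to ERt2, a part of the estrogen receptor that binds hormone, with IRES-GFP, and in the control line the same vector encoded ERt2 alone. Ikaros is a transcription factor under which pre-B cells stop dividing and mature, and the drug 4-hydroxy-tamoxifen (4-OHT) brings the fusion into the nucleus. Cells of both lines were collected at 0, 2, 6, 12, 18 and 24 h, with 3 samples (replicates 1, 2 and 4) per line and time. A dose of 0.5 uM 4-OHT is on the labels of all samples, also those of 0 h, which per the study's methods received none. The infected cells were sorted on GFP and expanded, so that each line is 1 sorted population, and its replicates are cultures of it. The cultures at 0 h were batches 4, 5 and 6, and those at 2 h to 24 h were batches 1, 2 and 3, so that time and culture batch cannot be told apart in a change from 0 h within a line. The sequencing of most control samples of 2 h to 18 h was separate from that of the Ikaros samples. At these times line and sequencing batch thus cannot be told apart beyond what the authors' correction achieved. Per the study's methods, some samples were sequenced in both batches so that batch effects could be estimated and corrected. At 0 h and 24 h the lines mostly shared a sequencing batch.

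All values are log2 of normalised read counts as deposited, so that 1 unit is a doubling. A line difference is the Ikaros mean minus the control mean on this scale, and it counted as called at an adjusted p under 0.05 by limma with Benjamini-Hochberg adjustment over the 469 miRNAs. The table ran from 0.09 to 19.30, the medians of the samples from 3.70 to 4.15, and the depth behind a value is not known from it. All 5 miRNAs listed as marks of B-lineage and blood cells were in the table, with miR-191-5p and miR-181a-5p at rank 1 and 2. The arms of miR-142a were at rank 8 (5p) and 18 (3p), and miR-150-5p was at rank 236. Of 15 listed for other cell types 6 were in the table and 9 were not, among the latter miR-124-3p of neurons, miR-122-5p of liver and miR-451a of red cells. The 6 included miR-9-5p (neural list), at 12.69 to 13.87 and rank 17, and miR-223-3p (myeloid list), at 0.63 to 4.58. MiR-126a-3p (endothelial list, rank 141) and miR-200c-3p (epithelial list, rank 202) also ranked above miR-150-5p. MiR-223-3p, miR-141-3p and miR-143-3p ranked below it, at 335, 383 and 446. The part of these 6 in the results was not tested.

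Over the 36 samples, the mean levels of the members spanned about 4 log2 units, and the ranges of neighbouring members overlapped. The mean of mmu-miR-132-3p was 5.20, rank 185 of the 469 miRNAs from the top, with a range of 4.27 to 5.66. MiR-212-5p had a mean of 3.81 (rank 239) and a range of 2.28 to 4.73. MiR-212-3p followed at 2.48 (rank 311, range 1.12 to 3.28) and mmu-miR-132-5p at 1.22 (rank 438, range 0.61 to 2.102). The cluster was thus of middle to low abundance in this line, with no member near miR-191-5p or miR-181a-5p at the top of the table. The SD within the 12 groups was 0.53 for miR-212-5p, larger than in 88.9% of the miRNAs among the 25% of similar level, and 0.47 for miR-212-3p, larger than in 75.2%. It was 0.33 for miR-132-3p and 0.32 for miR-132-5p, so that the same line difference is measured with a wider interval in the miR-212 arms. The value for miR-212-5p includes its widest group, control 12 h, with an SD of 1.16 (n = 3). In that group replicate 2 was at 2.28 and the others at 4.33 and 4.22.

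**Figure D1:**
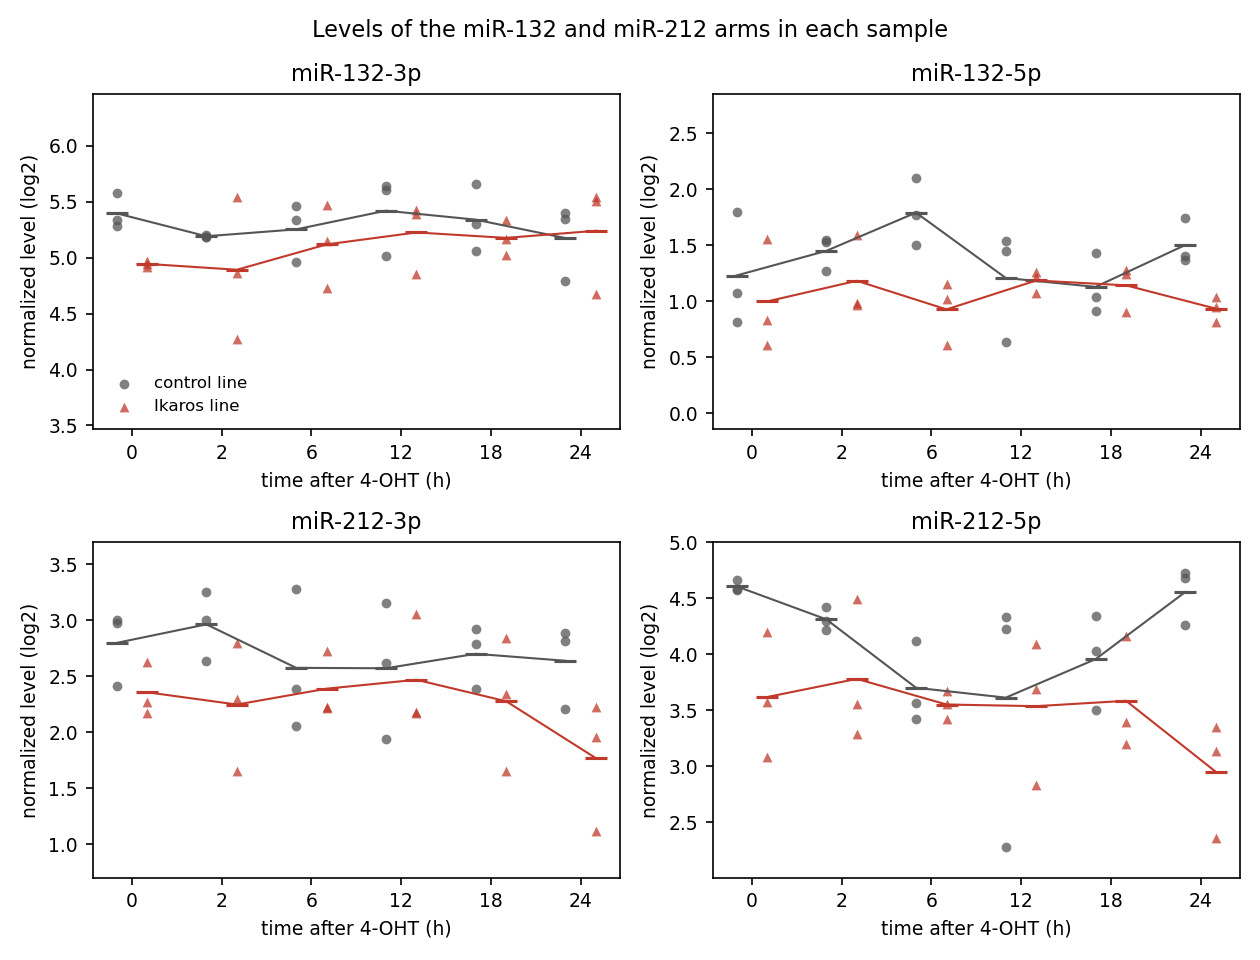
Normalised level (log2) of the 4 members against time after 4-OHT (h, times evenly spaced), with a panel per arm and a span of 3 log2 units in each. Points are the 3 samples of a group (grey circles control line, red triangles Ikaros line), and bars joined by lines are group means. MiR-212-5p at 24 h lies at 4.26 to 4.73 in the control line and at 2.36 to 3.35 in the Ikaros line, while miR-132-3p overlaps there.

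MiR-212-5p showed the largest line difference of the cluster. At 24 h its replicates 1, 2 and 4 were at 4.73, 4.26 and 4.68 in the control line and at 3.35, 2.36 and 3.13 in the Ikaros line. All 3 Ikaros samples were below all 3 control samples. The means were 4.55 ± 0.26 and 2.95 ± 0.52 (SD, n = 3), a line difference of -1.61 (SE 0.41, 95% interval -2.45 to -0.77), and limma gave an adjusted p of 0.00251. The Ikaros sample was lower in 3 of 3 same-numbered pairs, which share a culture batch. Of all 469 miRNAs, 39.9% were called at 24 h and 22% were called as lower in the Ikaros line, so that a lower call was common at this time. In these bulk samples, fewer cells with a miRNA and less of it per cell cannot be told apart. The groups did not overlap for 54.2% of all miRNAs, and for 30.3% with the Ikaros samples lower.

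The other arm of the same hairpin, miR-212-3p, was measured at 2.21, 2.89 and 2.82 in the control line at 24 h and at 1.12, 1.96 and 2.23 in the Ikaros line. The groups overlapped by the lowest control and the highest Ikaros sample. The line difference was -0.87 (SE 0.37, 95% interval -1.62 to -0.12), with a limma adjusted p of 0.0599, and the Ikaros sample was lower in 3 of 3 pairs. The Ikaros mean of 1.77 ± 0.58 (SD, n = 3) at 24 h was the lowest of the 12 group means of miR-212-3p, as 2.95 was of miR-212-5p.

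The arms of miR-132 gave smaller line differences at 24 h. MiR-132-3p was at 5.34, 5.39 and 4.79 in the control line and at 4.67, 5.54 and 5.51 in the Ikaros line, and the control samples lay within the range of the Ikaros samples. Its line difference was 0.07 with a 95% interval of -0.49 to 0.62 (limma, adjusted p = 0.865), so that differences above 0.62 or below -0.49 lie outside the interval. The value turned on single samples and on the scaling, with 0.43 without replicate 1, -0.26 without replicate 4, 0.30 with sample medians subtracted and 0.20 with quantile normalization, none of them called. MiR-132-5p was at 1.74, 1.36 and 1.40 in the control line and at 0.95, 1.04 and 0.81 in the Ikaros line. Its groups did not overlap, and the line difference of -0.57 (SE 0.27, 95% interval -1.12 to -0.02) had a limma adjusted p of 0.0926.

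**Figure D2:**
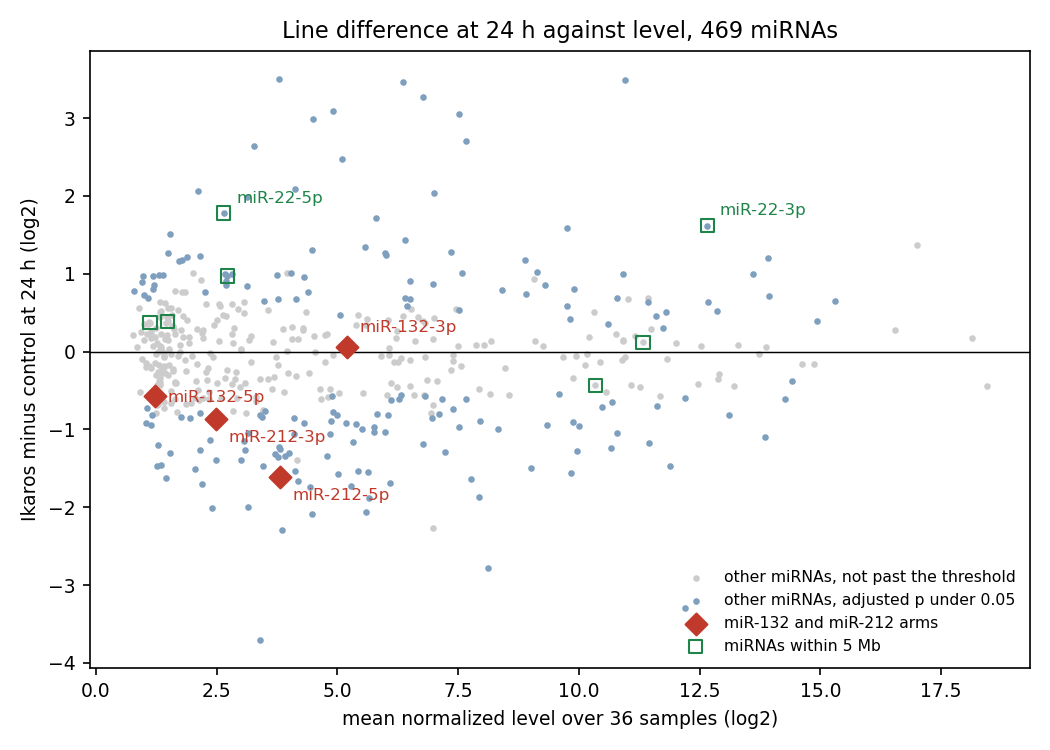
Line difference at 24 h (Ikaros minus control, log2) against the mean level over 36 samples (log2) for all 469 miRNAs, with called miRNAs in blue and the others in grey. Red diamonds mark the 4 members, of which miR-212-5p at -1.61 is called, and green squares mark 7 miRNAs within 5 Mb on chromosome 11, of which both arms of miR-22 lie above 1.6.

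The lines at 0 h show what differed without induction, per the methods of the study. At 0 h miR-212-5p was at 4.58, 4.57 and 4.66 in the control line and at 4.20, 3.57 and 3.08 in the Ikaros line. The control samples lay within 0.1 of each other and above all 3 Ikaros samples. The line difference was -0.99 (SE 0.41, 95% interval -1.83 to -0.15), a fold of 1.99, with a limma adjusted p of 0.179, against a background of 8.53% of all miRNAs called and 26.2% without overlap at 0 h. In a model of the 0 h samples alone the same difference had a limma adjusted p of 0.0447. MiR-132-3p did not overlap at 0 h either, with 5.33, 5.28 and 5.57 in the control line and 4.92, 4.94 and 4.97 in the Ikaros line. Its line difference was -0.45 (95% interval -1.01 to 0.10, limma adjusted p = 0.481). MiR-212-3p had a line difference of -0.44 and miR-132-5p of -0.23, with overlapping groups and limma adjusted p-values of 0.679 and 0.792.

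The line difference at 24 h was set against that at 0 h to ask what changed with induction. For miR-212-5p the further difference was -0.62 (95% interval -1.81 to 0.57, limma adjusted p = 0.522), and for miR-212-3p it was -0.43 (-1.49 to 0.63, adjusted p = 0.608). For miR-132-5p it was -0.34 (-1.11 to 0.44, adjusted p = 0.586) and for miR-132-3p it was 0.52 (-0.27 to 1.30, adjusted p = 0.401). Leaving out 1 replicate moved these values to between -0.94 and -0.43 for miR-212-5p, -0.70 and -0.22 for miR-212-3p, -0.80 and -0.10 for miR-132-5p, and 0.12 and 0.90 for miR-132-3p, none of them called. None of the 4 was called by limma or had an unadjusted p under 0.05, while 6.61% of all miRNAs were called as lower and 5.76% as higher in this contrast. Cultures are shared between 2 h and 24 h, but at 2 h line and sequencing batch cannot be told apart beyond the authors' correction. Against 2 h the further difference of miR-212-5p was -1.07 (-2.26 to 0.12, limma adjusted p = 0.209). Those of the other 3 lay between -0.30 and 0.36, with 8.96% of all miRNAs called as lower and 5.33% as higher. The F-test of a change in the line difference over the 6 times gave adjusted p-values between 0.313 (miR-212-5p) and 0.916 (miR-132-3p), with 13% of all miRNAs called.

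**Figure D3:**
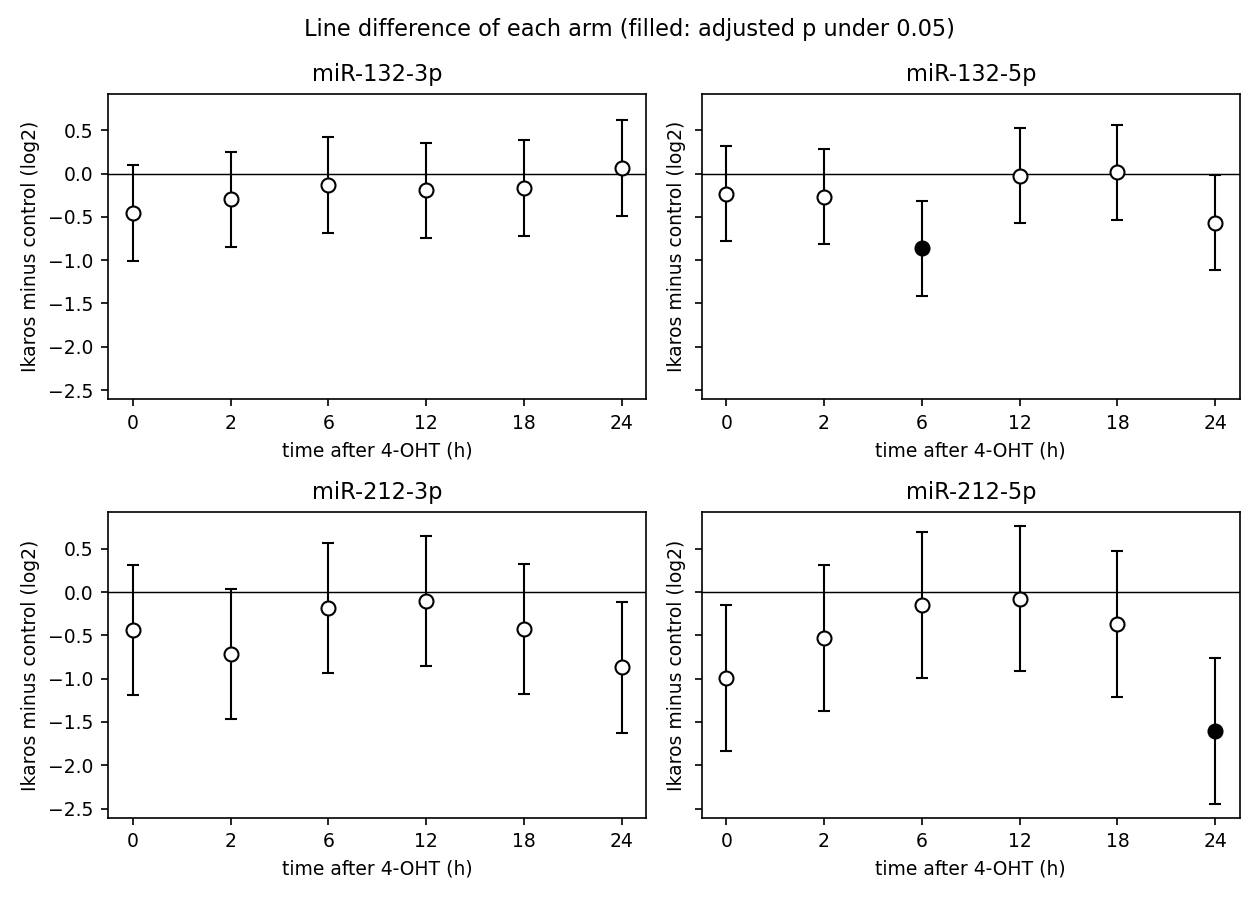
Line difference (Ikaros minus control, log2) of each member against time after 4-OHT (h, times evenly spaced), with 95% intervals from the limma model, and filled points for an adjusted p under 0.05. The filled points are miR-132-5p at 6 h (-0.86) and miR-212-5p at 24 h (-1.61), and the difference of miR-212-5p is nearest to zero at 6 h and 12 h.

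At 6 h miR-132-5p was the member with the largest line difference. It was at 1.77, 1.498 and 2.102 in the control line and at 1.02, 0.61 and 1.15 in the Ikaros line. The groups did not overlap, and the line difference was -0.86 (SE 0.27, 95% interval -1.41 to -0.31) with a limma adjusted p of 0.0276. At this time 15.1% of all miRNAs were called and 34.3% did not overlap. Line and sequencing batch cannot be told apart at 6 h beyond the authors' correction, as stated above. The call was lost with the median of each sample subtracted (-0.70, limma adjusted p = 0.0843). It was also lost without replicate 1, 2 or 4 (-0.92 to -0.82, limma adjusted p between 0.0994 and 0.199). The mean of 1.79 ± 0.30 (SD, n = 3) in the 6 h control samples was the highest of the 12 group means of this arm, and at 2 h and 12 h the control means were 1.45 and 1.21.

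At 2 h, 12 h and 18 h no member was called by limma, with 11.3%, 21.7% and 29.9% of all miRNAs called. MiR-212-3p had a line difference of -0.72 at 2 h (95% interval -1.47 to 0.04, adjusted p = 0.226), from 2.64, 3.25 and 3.00 in the control line and 2.29, 2.79 and 1.65 in the Ikaros line. At 12 h the control samples of miR-212-5p were at 4.33, 2.28 and 4.22, and the Ikaros samples at 3.69, 4.09 and 2.83. Control replicate 2 was the lowest of the 36 values of this arm and lay about 2 units below its fellows. With it the line difference at 12 h was -0.08 (adjusted p = 0.917), and without it, an alternative chosen after seeing the data, it was -0.74 (adjusted p = 0.168).

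Over the 6 times, 2 of the 24 line differences of the members were called and 22 were below zero. At single times, between 8.53% (0 h) and 39.9% (24 h) of all miRNAs were called. Both miR-212 arms were lower in the Ikaros line at 6 of 6 times, and both miR-132 arms at 5 of 6, the exceptions being miR-132-3p at 24 h (0.07) and miR-132-5p at 18 h (0.01). Of all miRNAs, 17.9% were lower at all 6 times and 31.1% at 5 or more. These counts of times depend on the scaling, since subtracting the median of each sample turned miR-212-5p at 6 h, miR-132-3p at 6 h and 18 h and miR-132-5p at 12 h to between 0.01 and 0.04, and quantile normalization turned miR-132-3p at 18 h to 0.13. They also depend on single replicates: miR-212-5p was at 0.12 at 6 h and 0.58 at 12 h without replicate 4, and at 0.21 at 12 h without replicate 1. MiR-212-3p was at 0.068 at 12 h without replicate 2 and at 0.00081 at 18 h without replicate 4. Of the miR-132 arms, 6 of the 12 differences changed sign when some replicate was left out. The mean line difference over the 6 times, computed after the values were seen, was -0.62 for miR-212-5p (limma, adjusted p = 0.00264), -0.46 for miR-212-3p (adjusted p = 0.0120), -0.32 for miR-132-5p (adjusted p = 0.0150) and -0.20 for miR-132-3p (adjusted p = 0.136), where 52.5% of all miRNAs were called. Without replicate 4 the first 3 were -0.40, -0.36 and -0.24 with adjusted p-values of 0.121, 0.110 and 0.102, and miR-132-5p was not called without replicate 1 either (-0.36, adjusted p = 0.0609). With sample medians subtracted, miR-212-3p (-0.33, adjusted p = 0.0750) and miR-132-5p (-0.20, adjusted p = 0.119) were not called. Over 0 h and 24 h alone, where sequencing was mostly shared, the mean was -1.30 for miR-212-5p (adjusted p = 0.000694) and -0.66 for miR-212-3p (adjusted p = 0.0536, and 0.0483 with culture batch as a replicate block), with 31.6% of all miRNAs called. The values were -0.40 for miR-132-5p (adjusted p = 0.108) and -0.19 for miR-132-3p (adjusted p = 0.484).

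Within each line the members were followed over time. In the control line miR-212-5p had means of 4.61, 4.31, 3.70, 3.61, 3.95 and 4.55 at 0, 2, 6, 12, 18 and 24 h. The lowest of these, at 12 h, includes replicate 2 at 2.28, with the other samples at 4.33 and 4.22. Most control samples of 2 h to 18 h were also sequenced apart from the Ikaros samples, and the part of this in the course was not tested. In the Ikaros line its means were 3.62, 3.78, 3.55, 3.53, 3.58 and 2.95. Between 2 h and 24 h the Ikaros samples differed by -0.83 (95% interval -1.67 to 0.01, limma adjusted p = 0.134), lower in 3 of 3 pairs of a culture batch, and the control samples by 0.24 (-0.60 to 1.08, adjusted p = 0.944). Between 0 h and 24 h the Ikaros difference was -0.67 (-1.51 to 0.17, adjusted p = 0.237).

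MiR-132-3p had means of 4.94, 4.89, 5.12, 5.22, 5.18 and 5.24 in the Ikaros line over the same times, and means between 5.17 and 5.42 in the control line. Its 24 h minus 2 h difference in Ikaros samples was 0.35 (95% interval -0.21 to 0.90, limma adjusted p = 0.376). This rested on single samples, with 0.95 (adjusted p = 0.0418) without replicate 1 and -0.09 without replicate 4. In all, 0 of 8 differences of 24 h from 0 h or 2 h were called in the Ikaros line, where 30.7% and 28.6% of all miRNAs were, and 0 of 8 in the control line, where 0% were. None of these 16 had an unadjusted p under 0.05 by limma, against 39.7% and 38.6% of all miRNAs in the Ikaros line and 3.41% and 7.04% in the control line. Of 40 steps between neighbouring times, 0 were called by limma, with 1 at an unadjusted p under 0.05, in the control line. Of all miRNAs, between 0% and 1.07% were called in a step, with 0.213%, 0.426% and 0.853% in those between. The F-test over the 6 times gave adjusted p-values of at least 0.580 in the control line (0.426% of all miRNAs called) and at least 0.635 in the Ikaros line (26.7%).

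The 12 group means of each member were put in order, from highest to lowest. For miR-212-5p the order began with control 0 h (4.61), control 24 h (4.55), control 2 h (4.31) and control 18 h (3.95), and ended with Ikaros 12 h (3.53) and Ikaros 24 h (2.95). For miR-212-3p all 6 control groups stood above all 6 Ikaros groups, from control 2 h (2.96) to Ikaros 24 h (1.77). The margin was 0.10, between control 12 h (2.57) and Ikaros 12 h (2.47), and without replicate 2 the 12 h line difference was 0.068. The share of all miRNAs with such an order was not counted. For miR-132-5p 5 of the top 6 groups were of the control line, with control 6 h (1.79) first and Ikaros 6 h (0.93) last. For miR-132-3p it was 4 of 6, from control 12 h (5.42) to Ikaros 2 h (4.89). In each member, the samples of 0 of the 11 pairs of neighbouring groups were apart, and the largest gap between neighbours was 0.59, above the Ikaros 24 h group of miR-212-5p.

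The balance of the arms was set out for each hairpin as 3p minus 5p within a sample (log2), so that a factor common to a whole sample cancels. A factor particular to 1 sequence does not cancel, and its size was not tested. The 2 hairpins favoured opposite arms. In miR-132 the 3p arm was 15.7-fold above the 5p arm on average, with the ratio between 3.18 and 4.86 and the 3p arm higher in 36 of 36 samples. MiR-132-5p had a mean of 1.22 (rank 438 of the 469), so that this fold rests on values near the low end of the table. In miR-212 the 5p arm was 2.52-fold above the 3p arm, with the ratio between -2.52 and 0.34 and the 5p arm higher in 35 of 36 samples. The exception was control 12 h replicate 2, the sample with the low miR-212-5p value. Of 129 hairpins with both arms in the table, 49 (38.0%) had the higher level in the 3p arm, and the median size of the ratio was 3.03. The members differ by at most 1 base in length, and a length term of the scale is not stated for the miRNAs. The authors corrected for G and C content, which differs between the arms (45.5% and 50.0% in miR-132, 47.8% and 54.5% in miR-212).

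At 24 h the miR-132 ratio was at 3.60, 4.03 and 3.38 in the control line and at 3.72, 4.50 and 4.69 in the Ikaros line. The miR-212 ratio was at -2.52, -1.37 and -1.86 in the control line and at -2.23, -0.40 and -0.91 in the Ikaros line. Both hairpins had overlapping groups, with the higher mean ratio in the Ikaros line. The line difference of the ratio was 0.63 for miR-132 (95% interval -0.06 to 1.33, limma adjusted p over the 129 hairpins = 0.234) and 0.74 for miR-212 (-0.42 to 1.89, adjusted p = 0.458), while 11.6% of hairpins were called. Thus the call of miR-212-5p without a call of miR-212-3p was not shown to be a difference between the arms. Beyond 0 h the ratios differed by 0.85 (-0.13 to 1.84, adjusted p = 0.433) and 0.19 (-1.45 to 1.82, adjusted p = 0.956), with 3.1% of hairpins called.

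**Figure D4:**
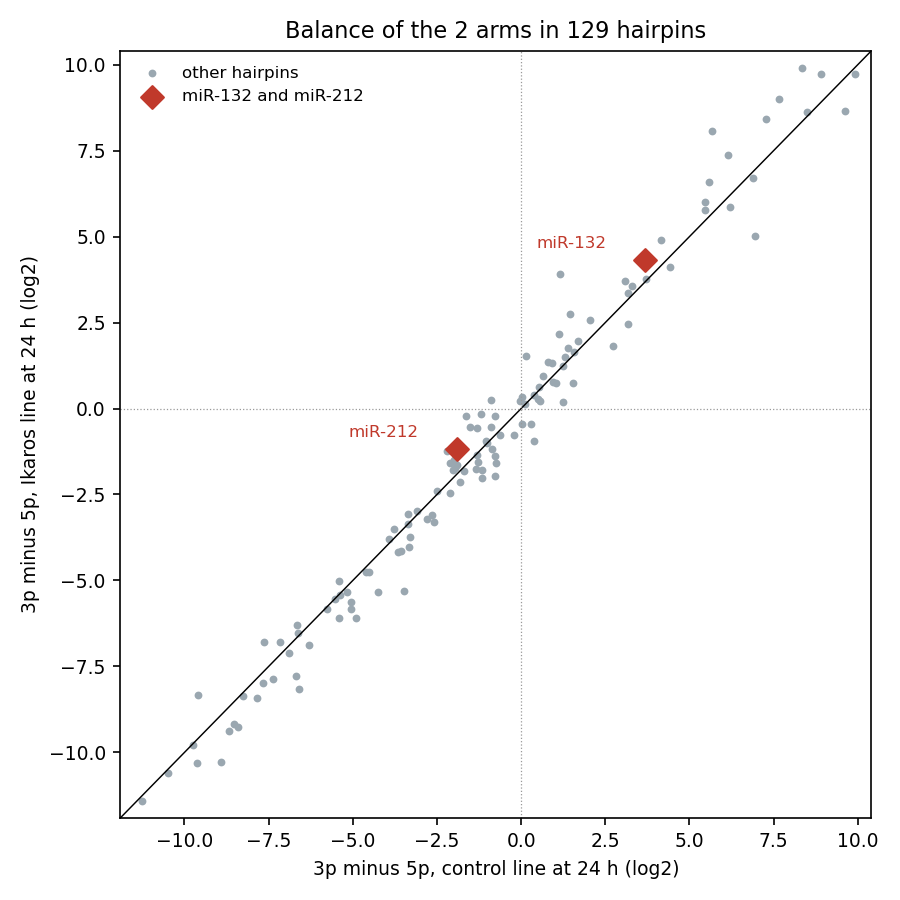
Mean 3p minus 5p level (log2) at 24 h in the control line (horizontal) and in the Ikaros line (vertical) for 129 hairpins, with the line of equality. MiR-132 (3.67 and 4.31) lies among hairpins that favour the 3p arm and miR-212 (-1.92 and -1.18) among those that favour the 5p arm, both above the line of equality.

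Since the 3p arms share a seed, their levels were also added on the linear scale. The sum lay between 4.49 and 5.84 (log2) in the 36 samples, and miR-212-3p made up between 7.20% and 20.5% of it, with miR-132-3p as the rest. At 24 h its share was 15.2% ± 5.04 in the control line and 8.30% ± 0.90 in the Ikaros line (SD, n = 3). The control samples ran from 10.3% to 20.3% and the Ikaros samples from 7.73% to 9.33%, without overlap, and no test was made of this share. At every earlier time the shares of the lines overlapped, with means of 14.3% (control) and 14.4% (Ikaros) at 0 h. The summed seed level at 24 h was 5.41 ± 0.27 and 5.36 ± 0.49 (SD, n = 3), with overlapping groups, as miR-132-3p carried most of it.

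The members were compared with each other as a description, since they share libraries. Across the 12 group means, the miR-212 arms had a Pearson r of 0.82 and the other 5 pairs lay between 0.18 and 0.56. Within groups, over the deviations of the 36 samples, the pairs lay between -0.09 (the miR-212 arms) and 0.41 (the 3p arms).

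The miRNAs most like each member were named by Pearson r over the 12 group means, against every other miRNA of the table. For miR-212-5p these were miR-363-3p (0.88), miR-100-5p (0.87), miR-17-3p (0.85), miR-467d-5p (0.84) and miR-467b-5p (0.83). Their line differences at 24 h lay between -1.54 and -0.74, a direction that the choice by likeness largely sets. For miR-212-3p they were miR-100-5p and miR-363-3p (both 0.90), miR-130b-5p (0.89), miR-467c-5p (0.87) and miR-17-3p (0.87), so that 3 of 5 names were common to the arms of miR-212. Over the 36 samples r was lower, between 0.64 and 0.70 for the 5 of miR-212-5p and between 0.37 and 0.65 for those of miR-212-3p. The most opposed were miR-501-5p, miR-301b-3p and miR-338-3p for miR-212-5p, and miR-28a-3p, miR-103-3p and miR-501-5p for miR-212-3p, with r between -0.88 and -0.82. MiR-501-5p stood 3.50 higher in the Ikaros line at 24 h.

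For miR-132-3p the nearest were miR-181a-5p (0.89), an abundant miRNA of lymphocytes, miR-21a-5p (0.78), miR-541-5p, miR-15b-3p and miR-200a-5p, and the most opposed were miR-674-3p (-0.90), miR-128-2-5p and miR-146a-5p. For miR-132-5p they were miR-511-3p (0.81), miR-410-3p, miR-429-3p, miR-200b-3p and miR-200a-3p, with miR-330-5p (-0.78), miR-99b-3p and miR-3058-5p most opposed. None of the 5 nearest names was common to the arms of miR-132. Over the 36 samples, r with these lay between 0.25 and 0.59 for miR-132-3p and between 0.36 and 0.53 for miR-132-5p.

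The other miRNAs within 5 Mb on chromosome 11 were 7 arms of 5 hairpins. At 24 h 3 of the 7 were called, both arms of miR-22 and miR-195a-5p, and none as lower. Of all miRNAs, 39.9% were called at this time and 22% were called as lower. MiR-22, whose hairpin lies 0.290 Mb away and is the nearest, stood above the control line at 24 h in both arms, by 1.62 for miR-22-3p (limma, adjusted p = 4.1e-11) and by 1.78 for miR-22-5p (adjusted p = 3.9e-06). MiR-195a-5p, of the miR-15 family, was higher by 0.97 (adjusted p = 0.00592). MiR-423-3p (0.12), miR-423-5p (-0.44), miR-7653-3p (0.37) and miR-193a-3p (0.39) were not called. At 0 h none of the 7 was called, where 8.53% of all miRNAs were, with miR-22-3p at 0.12 and miR-22-5p at 0.17.

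A list of 22 miRNAs of B cells and blood, which includes both miR-212 arms, had 20 members in the table. At 24 h 3 were higher in the Ikaros line, 5 were lower and 12 were not called, a share near the 39.9% of all 469 miRNAs called at this time. The median line difference was -0.43 in the list and -0.07 over all miRNAs. MiR-223-3p, a miRNA of myeloid cells, was higher by 2.06 (limma, adjusted p = 0.000516), and miR-126a-3p, known from endothelium and early blood cells, by 0.67 (adjusted p = 0.00310). The largest negative differences past the threshold were those of miR-212-5p and of miR-221-3p, which targets the receptor Kit, at -0.94 (adjusted p = 0.000132). The 8 called members became 5 without replicate 2 or without replicate 4. Beyond 0 h 2 were higher and 3 lower, none of them of the cluster, where 5.76% of all miRNAs were higher and 6.61% lower.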

How the data were processed

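Small RNA libraries (TruSeq) of 36 samples were analysed from the deposited table of log2 values. Per the methods of the study, the authors used Novoalign for alignment to miRBase mouse miRNAs, multiBamCov (bedtools) for counting, NOISeq for a filter on CPM, cqn for GC content, TMM for normalisation and ComBat for the batches of sequencing, and merged technical replicates as means. The deposited log2 values are therefore not counts, and no counting interval was computed. How a correction of batch moves a line difference at 2 h to 18 h was not tested.

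Samples were grouped by the line and time in the labels. All 36 entered 1 limma model (limma 3.58.1, R 4.3.3) with 12 group means, on the values as deposited, with eBayes and a mean-variance trend. P-values are two-sided and were adjusted with the Benjamini-Hochberg procedure over 469 miRNAs (129 hairpins for arm ratios) per contrast, with a threshold of 0.05. Scripts were tested on simulated data. Same-numbered samples of both lines share a culture batch per the labels, which pairs them, and their deviations correlated with r = 0.26. Named miRNAs were the 4 members, the 5 most and 3 least alike of each, the listed B-cell miRNAs with the 2 largest called differences in each direction, those within 5 Mb and those sharing a seed. The members and lists were chosen with earlier results of these data known. The replicates are cultures of 1 line each. Figures were drawn with matplotlib 3.10.9.

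The alternatives were a culture batch block, sample medians subtracted, quantile normalization, removal of miRNAs with a mean under 3, only the groups compared, no variance trend, and leaving out each replicate.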

Additional observations from a re-analysis of the deposited data

How the results depend on the processing

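MiR-212-5p at 24 h remained called in all 9 alternatives, at -1.72 to -1.37 with adjusted p-values between 0.00159 and 0.0219. Subtracting sample medians moved the median line difference of all miRNAs at 24 h from -0.07 to 0.17; it gave -0.70 for miR-132-5p at 6 h, 0.027 for miR-132-3p and 0.011 for miR-212-5p at 6 h, 0.044 for miR-132-5p at 12 h, 0.0096 for miR-132-3p at 18 h, 0.065 for miR-212-3p at 24 h beyond 2 h, 0.10 for the Ikaros 24 h minus 0 h difference of miR-132-5p, and -0.20 (miR-132-5p) and -0.33 (miR-212-3p) over the 6 times, without a call. Quantile normalization gave 0.13 for miR-132-3p at 18 h, and -0.021 (miR-132-5p) and 0.018 (miR-132-3p) from 2 h to 24 h in control samples. With only the groups compared, miR-212-5p at 0 h (-0.99) and miR-212-3p over 0 h and 24 h (-0.66, adjusted p = 0.0260) were called, the latter also with the replicate block (-0.66, adjusted p = 0.0483), which changed no other call of a member. Without control 12 h replicate 2, miR-132-5p at 12 h was 0.10. The cause of these changes was not tested.

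Leaving out each replicate gave, for miR-132-5p, -0.59 to 0.25 at 0 h, -0.92 to -0.82 at 6 h, -0.33 to 0.16 at 12 h, -0.10 to 0.11 at 18 h, -0.053 to 0.61 and -0.018 to 0.14 for 24 h minus 0 h and minus 2 h in control samples, -0.20 to 0.16 for 24 h minus 0 h in Ikaros samples and -0.37 to -0.24 over the 6 times. For miR-132-3p it gave -0.63 to 0.0068 at 2 h, -0.38 to 0.073 at 18 h, -0.26 to 0.43 at 24 h, -0.27 to 1.06 at 24 h beyond 2 h, -0.39 to 0.061 and -0.12 to 0.17 for 24 h minus 0 h and minus 2 h in control samples and -0.093 to 0.95 for 24 h minus 2 h in Ikaros samples. For miR-212-5p it gave -0.35 to 0.12 at 6 h, -1.02 to 0.58 at 12 h, -0.15 to 0.081 for 24 h minus 0 h in control samples and -0.74 to -0.40 over the 6 times. For miR-212-3p it gave -0.27 to 0.068 at 12 h, -0.86 to 0.00081 at 18 h, -0.61 to 0.14 at 24 h beyond 2 h and -0.51 to -0.36 over the 6 times.

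With a replicate left out, the listed B-cell miRNAs called numbered 5 to 7, and the miRNAs called over 0 h and 24 h numbered 92 to 121. Over all alternatives, the miRNAs called numbered 22 to 50 at 0 h, 16 to 62 at 2 h, 22 to 70 at 6 h, 18 to 106 at 12 h, 69 to 159 at 18 h, 110 to 193 at 24 h, 12 to 74 beyond 0 h, 19 to 75 beyond 2 h and 11 to 68 for the F-test of the line difference. In the Ikaros line they numbered 56 to 149 for 24 h minus 0 h, 54 to 144 for 24 h minus 2 h and 39 to 140 for the F-test, lowest without replicate 2. Arm ratios called numbered 7 to 18 at 24 h and 0 to 9 beyond 0 h. Of the 5 miRNAs nearest to a member, rank correlation shared 1 (miR-132-5p), 4 (miR-132-3p), 3 (miR-212-5p) and 3 (miR-212-3p), and correlation over 36 samples shared 2, 2, 2 and 0. MiR-132-5p and miR-212-3p had means under 3, so that they and both arm ratios had no value under that filter. Precision rests on 3 samples per group.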
